A study of Saccharomyces cerevisiae with 21 samples.

Results

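Yeast cells with a point mutation in the catalytic subunit of ribonuclease H2 (rnh201-G42S) were compared with cells that lack this subunit (rnh201-null), by the positions of ribonucleotides embedded in their nuclear and mitochondrial DNA. The comparison was defined by genotype and used the 6 ribose-seq libraries that the titles assign to these genotypes, 3 each, among 17 ribose-seq libraries and 21 samples in all. Ribose-seq captures DNA fragments that end in an embedded ribonucleotide and reports its position to the base and strand. All libraries came from the Saccharomyces cerevisiae strain BY4742 (mating type MATα), grown to stationary phase, and the labels name delitto perfetto, a marker-based genome editing method, for the mutations. The labels do not say whether libraries of a genotype came from separate cultures or clones, so p-values describe the spread between libraries, which may be technical. Each genotype had 1 whole-genome DNA sample, which served all of its libraries.

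Ribonuclease H2 (RNase H2) cuts DNA at embedded ribonucleotides and starts ribonucleotide excision repair. DNA polymerases insert these ribonucleotides during replication, and nuclear DNA keeps them when the enzyme is missing. Mitochondrial DNA is made by its own polymerase and is not known to be repaired by RNase H2. The G42S change is the yeast counterpart of a mutation of Aicardi-Goutières syndrome, and the design text describes such mutations as affecting the action on single ribonucleotides but not on long RNA-DNA hybrids. Setting it against the deletion asks where the ribonucleotide maps of the point mutant and the deletion differ.

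The value at each position was the authors' normalized enrichment factor, a ratio that behaved as the read number at the position divided by the genotype's DNA depth there. Nuclear and mitochondrial values had been scaled separately, so their ratio was computed from reads and depths. Read numbers and DNA depths were recovered from the values. Nuclear reads numbered 980141, 1457640 and 4116904 in rnh201-G42S replicates 1, 2 and 3 and 1437, 2143597 and 1981159 in rnh201-null replicates 1, 2 and 3. Null replicate 1 was therefore shallow, so window fits, values per library, same-position ratios and position fits are given with it and without it. The 4-of-5 position fit, the correlations between library sets and the opposite-strand ratios use the 5 deep libraries only. Mitochondrial reads numbered 271655, 317263 and 1239698 in rnh201-G42S and 623, 114470 and 94085 in rnh201-null. By their mitochondrial profiles, rnh201-G42S replicates 1 and 3 and null replicates 1 and 2 belonged to one set of libraries (set A), and rnh201-G42S replicate 2 and null replicate 3 to another (set B). The study used several sets of restriction enzymes to cut the DNA, and their match to these library sets was not tested.

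The deletion was looked for on chromosome XIV, which carries RNH201 (YNL072W), the gene of the catalytic subunit. Among the longest runs of this chromosome without a value in any rnh201-null library, the one with the most rnh201-G42S positions ran from 490322 to 491238 (sacCer2), and held 80, 94 and 291 positions in rnh201-G42S, against 0, 0 and 0 in rnh201-null. These counts follow from how the run was chosen, so only its length can be set beside the gene. The run has 917 bp, against a gene length of 924 bp in RefSeq, and the gene's own coordinates in this build were not used. As values are divided by DNA depth, positions without reads in the genotype's DNA sample would carry no value. The gap can therefore not be assigned to each null library apart from the DNA sample of the null genotype.

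In rnh201-G42S the nuclear share of ribonucleotides, relative to the mitochondrial share, was lower than in both deep null libraries. On the log2 scale, nuclear over mitochondrial density, with reads divided by DNA depth, was 0.68, 1.11 and 0.57 in rnh201-G42S replicates 1, 2 and 3, and -1.38, 1.76 and 1.73 in rnh201-null replicates 1, 2 and 3. All rnh201-G42S libraries lay below null replicates 2 and 3 and above the shallow null replicate 1. Over the 5 deep libraries the rnh201-G42S mean was 0.79 ± 0.28 (SD, n = 3) and the rnh201-null mean was 1.74 ± 0.02 (SD, n = 2), a difference of -0.96. The two-sided exact permutation test gave p = 0.2 without null replicate 1, the smallest it gives for 3 against 2, and p = 1 with it for a difference of 0.08. No comparison of 3 libraries with 3 can go below 0.1. After adjustment over 6 values per library these were 0.6 and 1.

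The size of that difference depended on the DNA samples. Mitochondrial DNA depth was 65.2 times the nuclear median in the rnh201-G42S DNA sample and 25.9 times in the rnh201-null sample, a ratio of 2.52 with no replicate DNA sample to give its error. In recovered reads per base pair, not divided by DNA depth, the log2 ratio was -5.29, -4.94 and -5.41 in rnh201-G42S and -5.93, -2.91 and -2.74 in rnh201-null. Without null replicate 1 the rnh201-G42S mean was -5.21 ± 0.24 (SD, n = 3) and the rnh201-null mean was -2.83 ± 0.12 (SD, n = 2), a difference of -2.38. Division by the DNA samples thus took the difference between deep libraries to -0.96 on the log2 scale, and its sign stayed the same. Whether the ribose-seq cultures had the mitochondrial DNA content of the sequenced DNA samples was not tested.

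**Figure D1:**
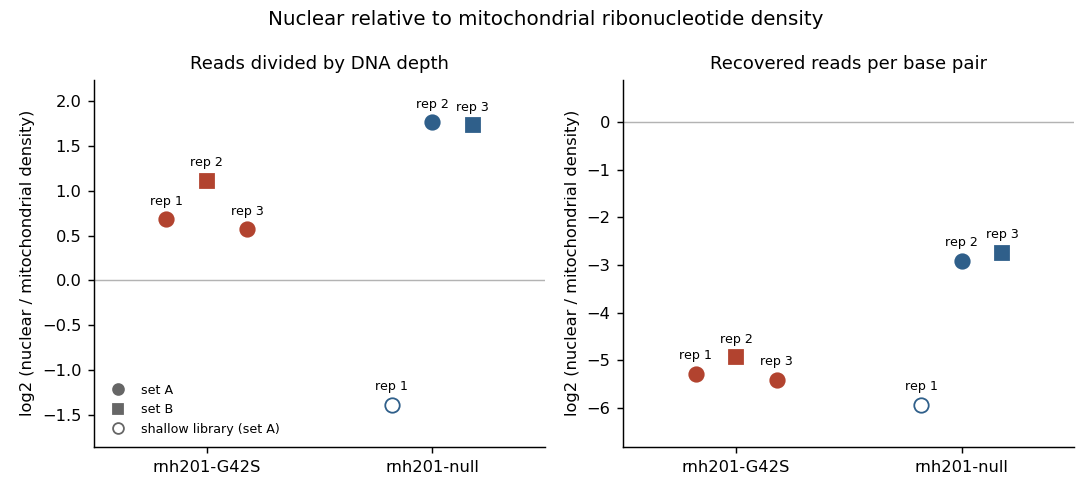
Nuclear over mitochondrial ribonucleotide density on a log2 scale, 1 point per library, with rnh201-G42S left of rnh201-null; circles are set A, squares set B, and the open circle is the shallow null replicate 1. In both panels the 3 rnh201-G42S libraries lie below null replicates 2 and 3 and above null replicate 1, and the gap is -0.96 with division by DNA depth and -2.38 without.

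Chromosome XII stood out among the 16 nuclear chromosomes, and its direction turned with the division by DNA depth. This chromosome carries the tandem ribosomal DNA repeats. Its mean enrichment factor, relative to the nuclear mean, was 1.17, 1.24 and 1.20 in rnh201-G42S replicates 1, 2 and 3, against 1.09, 1.02 and 1.05 in rnh201-null replicates 1, 2 and 3. The 3 rnh201-G42S libraries lay above all null libraries, the shallow one included. In recovered reads the order was the reverse, with 0.9004, 0.946 and 0.922 in rnh201-G42S against 1.04, 0.971 and 0.998 in rnh201-null. Over the deep libraries the rnh201-G42S enrichment factor averaged 1.21 ± 0.03 (SD, n = 3) and that of rnh201-null 1.04 ± 0.02 (SD, n = 2), whereas reads averaged 0.923 ± 0.023 for rnh201-G42S and 0.984 ± 0.019 for rnh201-null.

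The DNA samples differed on this chromosome in every part of it. DNA depth on chromosome XII was 0.755 of the nuclear median in the rnh201-G42S sample and 0.947 in the rnh201-null sample, a ratio of 0.797. In every 10-kb window of it the ratio was below 1, from 0.653 to 0.925. The other 15 chromosomes had ratios from 0.934 (chromosome IV) to 1.06 (chromosome I). Chromosome XII was the only one whose deep libraries did not overlap in recovered reads. With the enrichment factor, chromosomes V, VIII, XI and XVI also separated, all lower in rnh201-G42S, and since each library was scaled to its own mean, the chromosomes are not independent. The lower XII depth rests on 1 DNA sample per genotype, and whether the ribose-seq libraries share it was not tested.

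**Figure D2:**
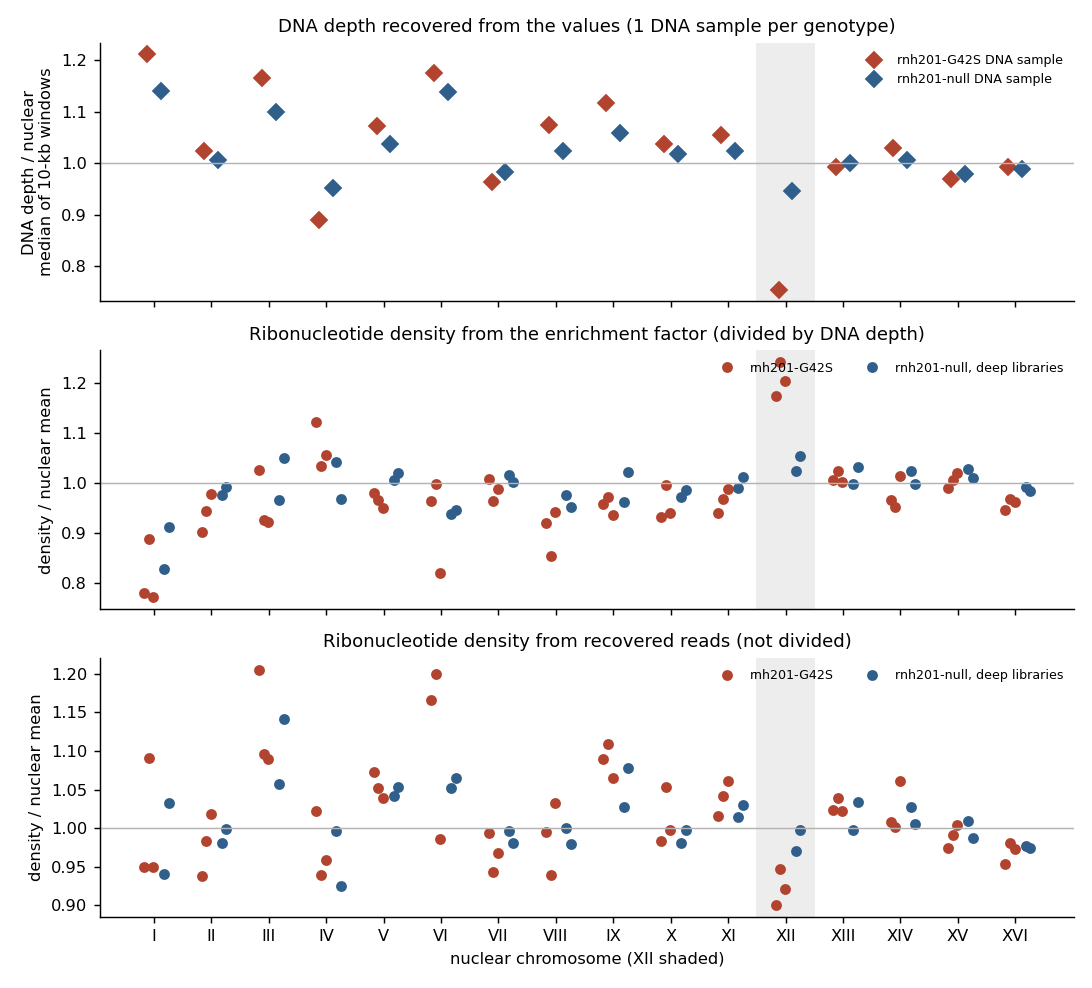
DNA depth per genotype (top), enrichment factor per library (middle) and recovered reads per library (bottom) for each nuclear chromosome, as multiples of the nuclear median of windows (depth) or the nuclear mean (density), with rnh201-G42S left of rnh201-null; null replicate 1 is not drawn. On chromosome XII, shaded, depth is 0.755 in rnh201-G42S and 0.947 in rnh201-null, and the 3 rnh201-G42S libraries lie above both deep null libraries in the middle panel and below them in the bottom panel.

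The repeats themselves could not be compared. In the 20 kb from 450001 to 470000 on chromosome XII, which hold the repeats in this build, the rnh201-G42S libraries had values at 80, 135 and 315 positions and the rnh201-null libraries at 0, 166 and 83, in at most 4 of the 20 1-kb stretches. The enrichment factor there was 0.071, 0.092 and 0.071 of the nuclear mean in rnh201-G42S and 0, 0.058 and 0.028 in rnh201-null. The libraries did not overlap (exact permutation p = 0.1, the smallest possible for 3 against 3, adjusted p = 0.6). Null replicate 1 had only 1435 nuclear positions in all, so its 0 here says little. Without it the exact permutation p was 0.2, the smallest for 3 against 2 (adjusted p = 0.6). In recovered reads the libraries overlapped, with 0.066, 0.082 and 0.060 in rnh201-G42S and 0, 0.062 and 0.030 in rnh201-null.

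The strand shares and the chromosome ends did not separate the genotypes. The plus strand held 49.7%, 49.4% and 50.1% of the nuclear signal in rnh201-G42S and 46.99%, 49.8% and 50.1% in rnh201-null. Of the mitochondrial signal it held 49.3%, 46.2% and 46.02% in rnh201-G42S and 45.9%, 45.1% and 48.5% in rnh201-null. The outermost 10 kb of the chromosomes had 0.501, 0.483 and 0.444 of the mean nuclear density in rnh201-G42S, against 0.493, 0.419 and 0.481 in rnh201-null. Their exact permutation p ran from 0.5 to 0.9 with null replicate 1 and from 0.4 to 0.8 without it. The concentration of reads overlapped between groups and was uneven between libraries. At 900000 nuclear reads per library, the top 1% of positions held 10.48%, 8.75% and 3.61% of reads in rnh201-G42S and 3.88% and 4.94% in null replicates 2 and 3 (exact permutation p = 0.6). Replicate 3, the deepest rnh201-G42S library, lay below both null libraries, and the other two lay above them.

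No nuclear window of 10 kb passed the threshold between rnh201-G42S and rnh201-null. Windows were tested with limma at a Benjamini-Hochberg adjusted p under 0.05, on log2 of the scaled enrichment factor plus 0.1. Over the 5 deep libraries 0 of 1194 windows passed (0%), with 30 at an unadjusted p under 0.05. With null replicate 1, 0 of 1191 passed (0%), with 19 at an unadjusted p under 0.05. Differences were small: in the fit of 5 libraries, the 5th and 95th percentiles of the windows were -0.47 and 0.43 on the log2 scale, with a median SE of 0.26. The rnh201-G42S libraries lay above both deep null libraries in 91 windows (7.62%) and below them in 114 (9.55%).

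The 3 windows with the smallest unadjusted p are named as not passing. Windows named here and below were picked by p, so separated libraries among them follow largely from that choice. The share of all windows in which all 6 libraries separate was not counted. Chromosome IV, 1240001 to 1250000, had 1.65, 1.27 and 1.07 times the library mean in rnh201-G42S and 1.99, 0.864 and 0.604 in rnh201-null replicates 1, 2 and 3 (log2 difference 0.78 ± 0.25 SE over the deep libraries, limma adjusted p = 0.988). Null replicate 1, left out of that difference, lay above all rnh201-G42S libraries. Chromosome V, 280001 to 290000, had 0.758, 0.836 and 0.9298 in rnh201-G42S and 1.17, 1.41 and 1.38 in rnh201-null, so that all 6 libraries separated (log2 difference -0.67 ± 0.22 SE without null replicate 1 and -0.59 ± 0.20 SE with it, limma adjusted p = 0.988 and 0.753). Chromosome II, 660001 to 670000, had 0.505, 0.873 and 1.05 in rnh201-G42S and 0, 1.28 and 1.58 in rnh201-null. With all 6 libraries the chromosome V window followed chromosome VIII, 110001 to 120000 (log2 difference -0.71), and chromosome II, 410001 to 420000 (-0.74). In both of these every rnh201-G42S library lay below every null library, from 0.636 to 1.01 in rnh201-G42S and from 1.16 to 1.68 in rnh201-null. Genes are not named for these windows, because no annotation of sacCer2 was used here.

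The chromosome XII windows moved with the DNA depth. In the fit of the 5 deep libraries, 79 of 104 windows on chromosome XII had a positive difference, with a median of 0.14 on the log2 scale, beside a median of -0.03 over all 1194 windows. In recovered reads 34 of 103 were positive, with a median of -0.11. None of these windows passed the limma threshold on either scale, and 3 and 0 had an unadjusted p under 0.05.

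Strand use within windows did not differ past the threshold either. Replication lays down the 2 strands with different polymerases, so the log2 ratio of plus to minus signal in a window depends on where replication starts. By limma 0 of 1194 windows passed over the 5 deep libraries (0%), with 18 at an unadjusted p under 0.05, and 0 of 1191 with null replicate 1 (0%), with 1 at an unadjusted p under 0.05. The rnh201-G42S ratio lay above both deep null libraries in 95 windows (7.96%) and below in 96 (8.04%). On chromosome VII, 60001 to 70000, named in both fits, the log2 ratio was 1.37, 0.75 and 0.55 in rnh201-G42S and 0.29, -0.12 and -0.47 in rnh201-null, where all 6 libraries separated (difference 1.18 ± 0.41 SE without null replicate 1 and 0.99 ± 0.38 SE with it, limma adjusted p = 0.992 and 0.731). The other windows named in the 5-library fit were chromosome I, 220001 to 230000 (difference 1.31), and chromosome XVI, 940001 to 950000 (1.08). In the 6-library fit they were chromosome VI, 230001 to 240000 (0.94), and chromosome IV, 1380001 to 1390000 (1.07). None of the 4 passed, and at the chromosome I and XVI windows null replicate 1, left out of the fit, had 3.86 and 4.198, above every rnh201-G42S library.

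Mitochondrial windows showed wider differences and larger errors. Over the 5 deep libraries 0 of 302 windows of 500 bp and 1 strand passed by limma (0%), with 1 at an unadjusted p under 0.05. With null replicate 1 it was 0 of 306 (0%), with 3. The median SE was 1.27 on the log2 scale, against 0.26 for nuclear windows. The rnh201-G42S libraries lay above both deep null libraries in 14 windows (4.64%) and below in 7 (2.32%). The plus strand from 81501 to 82000 led both fits, with 5.25, 1.19 and 1.27 times the library mean in rnh201-G42S and 0, 0.0245 and 0.325 in rnh201-null (log2 difference 3.20 ± 1.32 SE without null replicate 1, limma adjusted p = 0.997, and 3.60 ± 1.27 SE with it, adjusted p = 0.99999). All 6 libraries separated there, and with the library set as a covariate in the 6-library fit it passed, at a limma adjusted p of 0.0424. With the same covariate over the 5 deep libraries 0 of 302 windows passed, with 16 at an unadjusted p under 0.05, so the call rests on null replicate 1, which has 623 mitochondrial reads. The sets were also defined by these same mitochondrial windows, so the covariate is not independent of the values tested. The adjusted p of that fit can therefore not be taken at face value. The plus strand from 14001 to 14500 was high in both genotypes, with 29.99, 9.09 and 11.4 in rnh201-G42S and 3.55, 8.29 and 2.07 in rnh201-null. The remaining named windows, 84001 to 84500 on the minus strand, 33001 to 33500 and 12501 to 13000 on the plus strand, had log2 differences of 2.49, 2.19 and 2.26 that did not pass. The libraries of the genotypes overlapped at 84001 and 12501, and at 33001 null replicate 1, left out of the fit, lay above all rnh201-G42S libraries.

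The broad profiles of the libraries did not group by genotype in a simple way. In mitochondrial windows the sets were defined by these profiles, so their correlations only describe the sets. They were 0.878 between rnh201-G42S replicate 2 and null replicate 3, both of set B, and 0.116 to 0.230 between deep libraries of 1 genotype and different sets. Over 1194 nuclear windows, which did not define the sets, pairs of different genotypes within a set had 0.666 (rnh201-G42S replicate 2 with null replicate 3), 0.662 (rnh201-G42S replicate 3 with null replicate 2) and 0.383 (rnh201-G42S replicate 1 with null replicate 2). The 4 pairs of deep libraries of the same genotype had 0.349 to 0.551, and pairs that shared neither had 0.231 to 0.538, so neither genotype nor set ordered the pairs. Libraries of a genotype also share a DNA sample. The shallow null replicate 1 had nuclear correlations of only 0.0120 to 0.160 with the other libraries, those of its own genotype included. For the strand ratio pairs of the same genotype ranged from 0.344 to 0.630, within the range of pairs of different genotypes (0.326 to 0.770).

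At single bases the pairs of the same genotype lay higher. Pairs of libraries were compared by the number of positions where both had a ribonucleotide on the same strand, divided by the mean number at offsets of 11 to 30 bases, so that a shared broad profile enters both numbers. In nuclear DNA this ratio was 2.13, 1.83 and 1.77 for the 3 pairs of rnh201-G42S libraries and 1.73 for the deep null pair. For the 6 pairs of different genotypes it ran from 1.54 to 1.74. The pair with the highest nuclear window correlation, rnh201-G42S replicate 2 and null replicate 3, had 1.57, lower than each same-genotype pair. Pairs of the same genotype exceeded the others by 0.232 on average, and their ranges overlapped only in that rnh201-G42S replicate 3 with null replicate 2, at 1.74, lay above the deep null pair. Libraries differ in depth, and with each thinned to 900000 nuclear reads the ratios were higher. They were then 2.23, 2.11 and 2.06 for the rnh201-G42S pairs and 1.94 for the deep null pair. For pairs of different genotypes they then ran from 1.61 to 2.05, the highest again rnh201-G42S replicate 3 with null replicate 2. The measure was chosen after the values were seen and has no test. The shallow null replicate 1 shared positions with rnh201-G42S at ratios of 2.04, 1.81 and 1.90 and with null replicates 2 and 3 at 1.81 and 2.22. These were based on 151 to 309 shared positions each, and their 95% Poisson intervals, which cover counting error only, overlapped. In mitochondrial DNA the ratios were 1.14 to 1.30 for the same genotype and 1.16 to 1.46 for different genotypes.

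**Figure D3:**
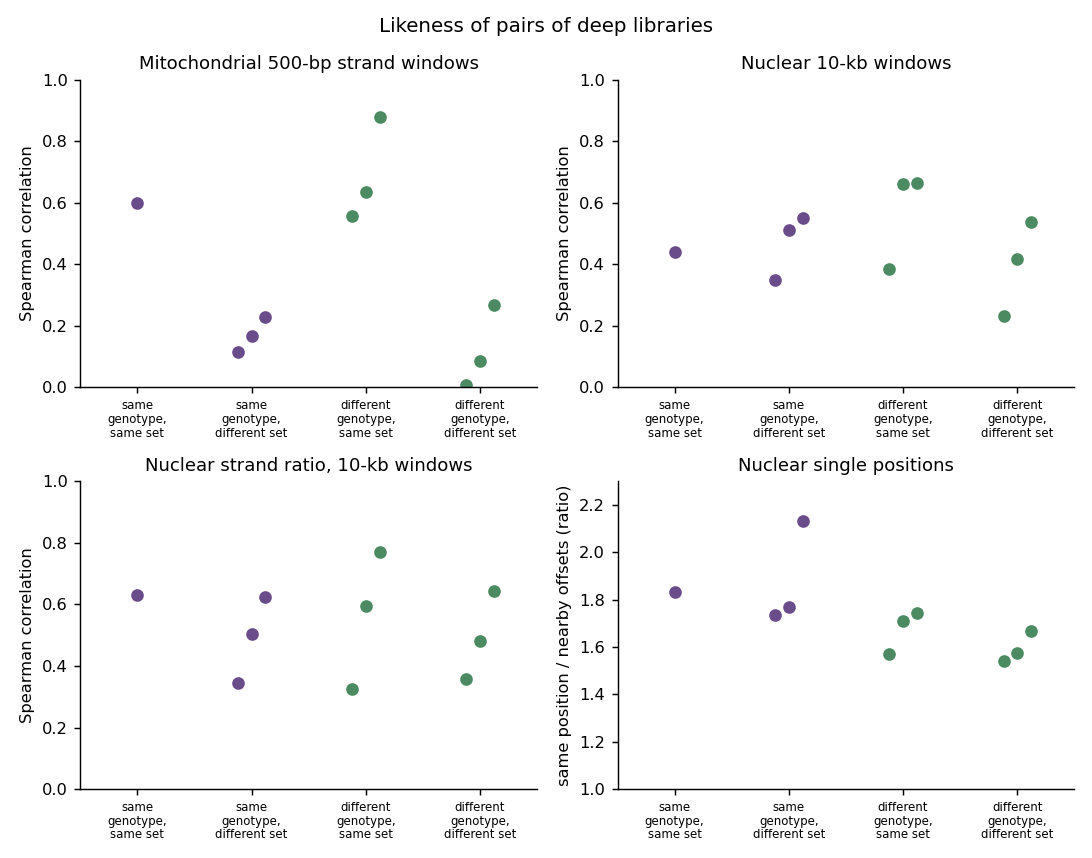
Likeness of the 10 pairs of deep libraries by kind of pair, with Spearman correlation in 3 panels and the same-position ratio in the last; each point is a pair. In mitochondrial windows pairs of the same set are highest (0.557 to 0.878), which their definition fixes; in nuclear windows the kinds of pair overlap, and at single nuclear positions pairs of the same genotype (1.73 to 2.13) lie above nearly all pairs of different genotypes (1.54 to 1.74).

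The genotypes also separated at base resolution in how ribonucleotides on opposite strands were spaced. For each plus-strand position the minus-strand position at a given offset was looked up, and the number of such pairs was divided by the mean at offsets of 11 to 30 bases on either side. An offset of 0 means both bases of a pair, and a negative offset a minus-strand position at a lower coordinate. At offset -3 the ratio was 0.858, 0.861 and 0.847 in rnh201-G42S replicates 1, 2 and 3, against 0.999 and 1.02 in null replicates 2 and 3. At offset 0 it was 0.957, 0.964 and 1.05 in rnh201-G42S, against 1.13 and 1.21 in the same null libraries. Both the deficit at -3 in rnh201-G42S and the excess at 0 in rnh201-null were present in each deep library, and the groups did not overlap.

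At offset -3 the rnh201-G42S mean was 0.855 ± 0.008 (SD, n = 3) and the rnh201-null mean 1.01 ± 0.01 (SD, n = 2), and at offset 0 the rnh201-G42S mean was 0.990 ± 0.052 and the rnh201-null mean 1.17 ± 0.06. The differences were -0.153 and -0.181. They were -0.147 and -0.127 within set A and -0.156 and -0.249 within set B. At offset -2 the order was the opposite, with 0.999, 0.991 and 1.09 in rnh201-G42S and 0.918 and 0.952 in rnh201-null. Offset 1 was low in both genotypes, at 0.867, 0.860 and 0.871 in rnh201-G42S and 0.877 and 0.911 in rnh201-null. Among 25 offsets from -12 to 12 the deep libraries did not overlap at 8, and apart from -3 and 0 the differences ran from -0.0781 to 0.0903. These offsets were singled out after their values were seen, so no test is given. Null replicate 1 had too few positions for this measure.

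Mitochondrial DNA did not show this pattern. At offset -3 the ratio was 0.995, 1.02 and 0.979 in rnh201-G42S and 0.974 and 1.03 in null replicates 2 and 3. At offset 0 it was 0.894, 0.939 and 0.892 in rnh201-G42S and 0.905 and 0.918 in rnh201-null. The groups overlapped at both offsets. The measure was uneven in mitochondrial DNA, with means of 1.03 and 1.03 in rnh201-G42S and rnh201-null at offset -12. At offset 12 they were 0.918 and 0.921, so a mean over both sides is a less exact background there. Thinning to equal reads was not done for mitochondrial DNA. The bases at these positions were not read, because no genome of this build was used here, so the part of base composition was not tested.

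**Figure D4:**
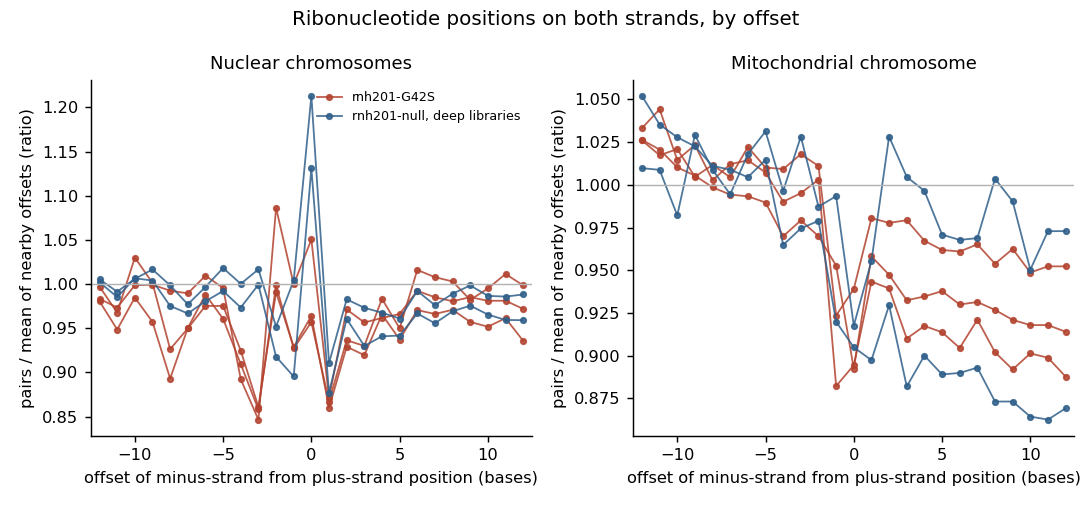
Number of plus- and minus-strand position pairs at each offset in bases, divided by the mean at offsets of 11 to 30 bases, 1 line per deep library, for nuclear (left) and mitochondrial DNA (right). In nuclear DNA the 3 rnh201-G42S lines dip to 0.847 to 0.861 at offset -3, where both null lines stay near 1, and the null lines peak at 1.13 and 1.21 at offset 0; in mitochondrial DNA the lines cross at both offsets.

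Few positions were hit in every library. Of the nuclear positions, 47251 had a value in all 3 rnh201-G42S libraries and 174507 in both deep null libraries, and 6091 were in both lists, which is 12.9% of the rnh201-G42S list and 3.49% of the null list. With null replicate 1 only 10 remained. In mitochondrial DNA the lists held 9655 and 4207 positions and shared 2668, or 27.6% of the rnh201-G42S list and 63.4% of the null list. With null replicate 1 it was 73. The lists differ in the number and depth of their libraries. Nuclear positions numbered 615184, 896084 and 2661040 in rnh201-G42S replicates 1, 2 and 3, and 1535413 and 1334066 in null replicates 2 and 3. The sizes and shares of the lists therefore depend on depth, and the shares that depth alone would give were not computed.

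None of the shared positions passed. By limma 0 of 6091 nuclear positions (0%, with 207 at an unadjusted p under 0.05) and 0 of 2668 mitochondrial positions (0%, with 129) differed over the 5 deep libraries. The rnh201-G42S values lay above both deep null values at 1146 nuclear positions (18.8%) and below at 212 (3.48%). In mitochondrial DNA they lay above at 114 (4.27%) and below at 450 (16.9%). A position with 1 read has the lowest value a library can give there. This lowest value is set by the library's scaling and by the genotype's DNA depth there. Median DNA depth at mitochondrial positions was 11605, 11900 and 10635 in rnh201-G42S, against 4565 and 4178 in null replicates 2 and 3. The part of this lowest value in these shares was not tested. The median difference over the tested positions kept its sign when 1 deep library was left out, and turned when positions with a missing value were admitted. In nuclear DNA it was 0.53 on the log2 scale over the 5 deep libraries, 0.23 to 0.98 when 1 of them was left out, and -0.78 over positions with a value in at least 4 of them. In mitochondrial DNA it was -0.74 over the 5 deep libraries, -0.97 to -0.48 when 1 of them was left out, and 0.25 over positions in at least 4. The fits of at least 4 libraries filled each missing value with log2 of 0.1, and the part of this filling in the turn was not tested. With null replicate 1, which has no read at nearly all of these positions, the medians were 2.74 in nuclear and 0.96 in mitochondrial DNA, and again 0 positions passed by limma, with 2 and 5 at an unadjusted p under 0.05.

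At chromosome XV, position 280459, minus strand, the enrichment factor was 565, 1259 and 180 in rnh201-G42S, against 4.83 and 57.3 in null replicates 2 and 3 (44, 149 and 59 reads against 1 and 11). It lies in the window from 280001 to 290000. At chromosome XII, position 335021, plus strand, the reads were 24, 9 and 18 in rnh201-G42S against 1 and 1 in rnh201-null, and at chromosome IX, position 70479, plus strand, 73, 23 and 7 against 1 and 1. Their log2 differences were 4.92 ± 1.46, 4.64 ± 1.48 and 4.85 ± 1.55 (SE), with a limma adjusted p of 0.982 for each. They lie in the windows from 330001 to 340000 and from 70001 to 80000. Null replicate 1 had no read at any of them. The mitochondrial positions with the smallest p had a higher enrichment factor in null replicates 2 and 3 than in every rnh201-G42S library. They were 41012 on the minus strand and 75733 and 16894 on the plus strand (limma adjusted p = 0.880 for each). Null replicate 3 had 8, 63 and 30 reads there, and null replicate 2 had 1, 2 and 6. Reads in rnh201-G42S replicates 1, 2 and 3 were 1, 1 and 1 at 41012. They were 2, 3 and 1 at 75733 and 1, 4 and 5 at 16894. At 41012 null replicate 2 thus had the same 1 read as each rnh201-G42S library. Its value of 0.622, against 0.186, 0.168 and 0.0410, was higher through the scaling and DNA depth only.

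When a value in 4 of the 5 deep libraries was enough, 51 of 53921 nuclear positions passed (0.0946%), 50 of them higher in rnh201-G42S and 1 lower. This direction is no evidence of a difference. Of the 51, 38 had no value in null replicate 2 and 4 none in null replicate 3, so they entered the fit with values in all 3 rnh201-G42S libraries, and the missing value was filled with log2 of 0.1, below what 1 read gives. Among all positions tested, 12534 had no value in null replicate 2 and 7710 none in null replicate 3. In rnh201-G42S 17723, 8008 and 1855 had none in replicates 1, 2 and 3, and 1 of the passing positions lacked a value in replicate 1. Of all positions tested 45.8% had a positive difference. Missing values were thus not confined to rnh201-null, and their part in the direction was not tested. The 8 passing positions with a value in all 5 included chromosome XV, 280459, and chromosome IX, 70479 (limma adjusted p = 5.3e-11 and 0.0172 in this fit, against 0.982 for each in the fit of positions with a value in all 5). Their own values are nearly the same in both fits. The fits differ in the other positions, from which limma takes part of the spread. In this fit these include filled values, whose part in the smaller p was not tested. The smaller p is not taken as stronger evidence.

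The differences between genotypes were only weakly shared by the 2 library sets. In each set the log2 difference was taken per window, as the mean of rnh201-G42S replicates 1 and 3 minus null replicate 2 in set A and as rnh201-G42S replicate 2 minus null replicate 3 in set B. Across 1194 nuclear windows of 10 kb the 2 sets of differences had a Spearman correlation of 0.255, and 55.4% of windows had the same sign. In recovered reads it was 0.215. Both sets use the same DNA samples, so the first value includes any depth difference between them. For the strand ratio it was 0.121. Across 302 mitochondrial windows it was -0.127, with the same sign in 40.7%. At single positions it was 0.112 for 6091 nuclear and 0.0759 for 2668 mitochondrial positions.

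**Figure D5:**
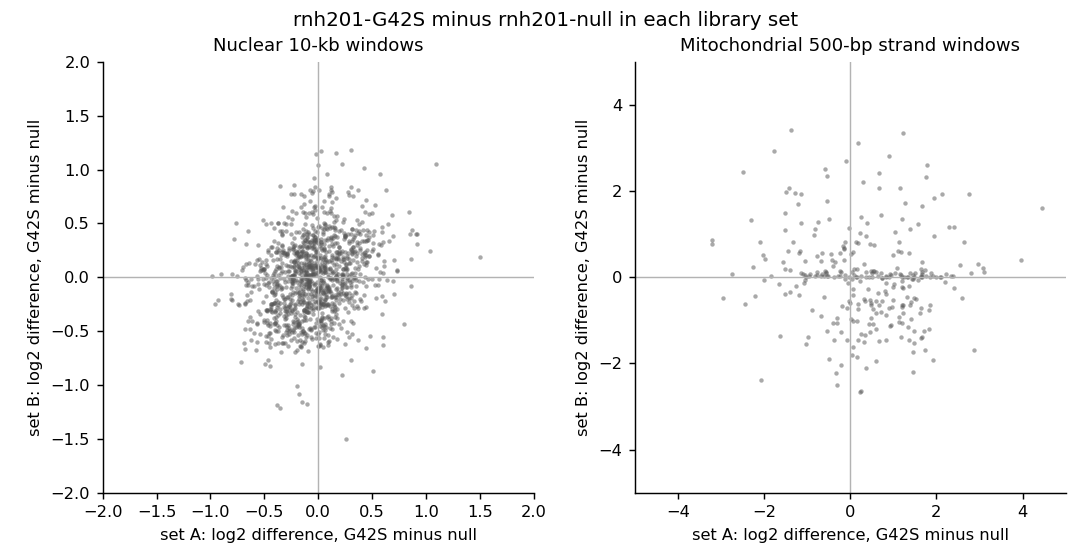
Log2 difference of rnh201-G42S minus rnh201-null in set A (horizontal) and set B (vertical) for 1194 nuclear windows of 10 kb (left) and 302 mitochondrial windows of 500 bp and 1 strand (right), 1 point per window. Nuclear points lean weakly along the diagonal (Spearman 0.255) and mitochondrial points do not (-0.127).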

How the data were processed

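Ribose-seq values of 3 rnh201-G42S and 3 rnh201-null libraries were taken from the table that the authors deposited. As deposited, each value is an enrichment ratio that the authors had normalized within the nuclear and the mitochondrial genome; in the values it equals reads over the DNA depth of the genotype, times a constant for each library. Per the labels and the design text, trimmed reads were aligned to sacCer2 and turned into filtered ribonucleotide coordinates with Ribose-Map and custom scripts, and the submitters' processing notes name cutadapt. The formula of the ratio is not given in the sources used here and was worked out from the values. Rows were merged by chromosome, end and strand. Read numbers and DNA depths were recovered as whole numbers, and the steps were tested on simulated data. At least 99.99% of nuclear values gave a whole depth, and 93.1% to 100% of mitochondrial values did, so mitochondrial read numbers are approximate. Whether duplicate reads were removed by molecular identifiers is not given in the sources used here, so intervals cover counting error only.

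Windows of 10 kb (nuclear) and 500 bp and 1 strand (mitochondrial) were scaled to a library mean of 1, kept at a mean of at least 0.1 and fitted as log2(value + 0.1) with limma 3.58.1 in R 4.3.3 (trend, no covariates). Such differences understate the change of low windows. Single positions with a value in all 5 deep libraries were fitted as log2 of the enrichment factor, with no pseudocount; the fits that admit missing values (4 of 5 libraries, or with null replicate 1) used log2(value + 0.1). Values per library were compared by exact permutation tests in scipy 1.17.1. Where no window or position passed, the 3 with the smallest unadjusted p were named. The members, windows and tests were chosen with earlier results of these data known. Replicates were numbered in accession order.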

Additional observations from a re-analysis of the deposited data

How the results depend on the processing

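Every main count of windows or positions that passed was 0, so that most alternative counts were also 0 (92 of 95) shows no stability. Of 267 alternative values of named windows and positions, 264 kept their direction and their side of the threshold, which none had passed. The counts above 0 were 1 mitochondrial window with the library set as a covariate over 6 libraries (0 over the 5 deep libraries), 51 nuclear positions with a value in at least 4 of the 5 deep libraries, and 0 to 1 nuclear positions when 1 library was left out. The 1 came without rnh201-G42S replicate 3, at chromosome XII, position 1071592, minus strand. Its cause was not tested.

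Values per library are given as rnh201-G42S minus rnh201-null over 6 libraries. Leaving out 1 library moved the log2 nuclear-to-mitochondrial density between -0.96 and 0.61, turning its direction without null replicate 1 and without rnh201-G42S replicate 2 (-0.08). It was -1.35 in recovered reads and -0.62 within set B. The nuclear plus-strand share ran from -0.231 (without null replicate 1) to 1.34 percentage points and was -0.771 within set B. The mitochondrial plus-strand share ran from -0.398 (without rnh201-G42S replicate 1) to 1.65, turned without null replicate 2 (-0.0149), and was -0.00624 in recovered reads and -2.28 within set B. The top 1% share ran from -0.0238 to 0.0238 at 1400 reads, was 0.0714 within set B, and was 3.20 over the 5 deep libraries at 900000 reads (1.12 for the top 0.1%). The chromosome-end value ran from -0.0110 (without null replicate 2) to 0.0278, turned without rnh201-G42S replicate 1 (-0.000628), and was -0.00164 in recovered reads and -0.0380 for the outermost 5 kb. The causes were not tested.

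The opposite-strand difference at offset -3 was -0.193 with libraries thinned to equal reads and -0.0914 at positions with 1 read, and at offset 0 it was -0.249 within set B. At equal reads the rnh201-G42S mean at -3 was 0.831 ± 0.035 (SD, n = 3), a wider spread. With a background of 31 to 60 bases, the ratio at -3 was 0.838, 0.814 and 0.815 in rnh201-G42S and 0.951 and 1.01 in null replicates 2 and 3. At offset 0 it was 0.934, 0.911 and 1.01 in rnh201-G42S and 1.08 and 1.21 in the same null libraries. These alternatives were chosen after seeing the data, and none turned the direction. Leaving out 1 library gave -0.161 to -0.144 at offset -3, -0.222 to -0.140 at offset 0, and 0.111 to 0.349 for the same-position difference between pairs. No paired analysis was possible because the labels number no replicates; the library set, taken from the data, was used as a covariate instead. Null replicate 1, with 1437 nuclear reads, limits every comparison over 6 libraries.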

Other observations

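The spacing of ribonucleotides on opposite strands was also read in the nuclear DNA of other genotypes, where the library had enough positions, as values with no comparison. At offsets -3, 0 and 1 the ratio was 0.986, 0.969 and 1.12 in rnh203-K46W replicate 4 (1206338 positions) and 0.905, 1.02 and 1.10 in rnh203-K46W replicate 5 (438748 positions). In rnh203-K46W replicate 3 (214274 positions) it was 1.44, 1.64 and 1.66. The shallower rnh203-K46W replicate 1 had 0.966, 0.827 and 1.18 and wild-type replicate 6 had 0.827, 1.02 and 1.31, against background means of only 85.9 and 20.6 pairs. All 5 libraries lay above 1 at offset 1, where the deep rnh201-G42S and rnh201-null libraries had 0.860 to 0.911.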
